A study of Mus musculus with 4 samples.

Results

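The cytochrome P450 genes of families 1 to 4, together with the cytochrome b5 genes Cyb5a and Cyb5b, were compared between samples of stem cells and of enterocytes from mouse proximal intestine. Members were taken by gene symbol. Each is Cyb5a, Cyb5b or a gene whose symbol starts with Cyp, a family number from 1 to 4, a subfamily letter and a gene number. The rule reads symbols and no measured value, though it was set up with earlier results of these data known. The arrays measured 51 such genes among 12393, 49 of them P450 genes in 16 subfamilies. RefSeq's annotation of assembly GRCm38.p6 holds 82 protein-coding genes that match the rule, with Cyb5a, Cyb5b and Por counted. The rule also names Por, the reductase that passes electrons to microsomal P450s, which was not analysed here.

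RNA was measured on 4 Affymetrix arrays, 2 per group, with normalized intensities per probe set, given here as log2. The stem group held Lgr5(hi) cells that a flow cytometer had sorted out of wild type epithelium. The enterocyte group held villus cells, released with EDTA, of mice in which Atoh1 had been knocked out conditionally. Atoh1 encodes a transcription factor that the secretory cells of the gut need. All 4 samples came from proximal intestinal epithelium of C57BL/6 mice aged 4 to 6 weeks. The labels of all 4, the wild type ones included, give tamoxifen at 1 mg per day for 5 days and a wait of 5 days. The sources used here do not give the Cre driver, the reporter behind the sort or the number of animals per sample. The samples are labelled biological replicates, but with no animals named the p-values measure the spread between these samples only. The groups differ at once in cell type, in genotype and in how cells were isolated, and these cannot be told apart.

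P450 enzymes are haem proteins that insert an oxygen atom into their substrates. Families 1 to 3 oxidise drugs, food toxicants and steroids, and family 4 mainly hydroxylates fatty acids and eicosanoids at the end of the chain. The epithelium of the proximal small intestine is a main site of P450 activity outside the liver, where swallowed compounds are oxidised before they reach the portal blood. Expression of several members is driven by ligand-activated receptors, among them the aryl hydrocarbon receptor for family 1 and the nuclear receptors PXR and CAR for families 2 and 3.

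The labels were checked against marker genes, on the log2 scale used for all array values here. Atoh1 read 7.43 and 7.71 in stem against 5.06 and 5.28 in enterocyte arrays, and with no wild type enterocytes its knockout and the change of cell type cannot be told apart. Lgr5 was 11.33 and 10.96 against 6.92 and 6.09. All 12 measured stem cell markers were lower in enterocytes and all 14 enterocyte markers were higher (limma). Markers of other cells also differed. Goblet cell markers were lower in 8 of 8 cases, with summed intensities of 36915.2 to 43770.4 in the stem and 680.4 to 1225.1 in the enterocyte arrays. Enteroendocrine markers were lower in 7 of 10 (8834.6 to 11422.9 against 788.0 to 872.6). Lymphocyte markers were higher in 11 of 12 (705.1 to 968.6 against 8874.7 to 11973.1) and tuft cell markers in 6 of 7 (627.5 to 987.8 against 3538.0 to 5331.9). Of 10 hepatocyte markers 7 lay below background in both groups, among them albumin, Alb, and 2 were lower in enterocytes. In a bulk sample, fewer cells of a type and less RNA per cell cannot be told apart, and what the other cell types contributed to the results below was not tested.

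Of the 51 members, 22 were higher and 1 was lower in enterocytes at an adjusted p under 0.05 (limma, adjusted over all 12393 genes), and 28 did not pass. That is 43.1% higher and 1.96% lower, against 18.2% and 22.4% of all genes tested, or 40.6% in either direction. The median difference, enterocyte minus stem, was 0.49 on the log2 scale over the members and -0.003 over all genes. A difference of at least 4 on the log2 scale, past the threshold, was seen in 10 members and in 0.952% of all genes. Both enterocyte arrays exceeded both stem arrays in 33 members and lay under both in 3, while 30.5% and 34.8% of all genes did so. With each array shifted by its reference genes, which lowered the median difference of all genes by 0.36, 20 members were higher and 7 lower, and the calls over all genes became 1737 higher and 5387 lower in place of 2257 and 2779. The members' median difference was 0.58 without stem array 1 and 0.44 without stem array 2. It was 0.45 without enterocyte array 1 and 0.52 without enterocyte array 2. A group of 1 array has no spread of its own, and calls over members and over all genes in those fits are given with the processing below.

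Many members were dim. A background level of log2 5.53 was taken from 26 measured genes typical of organs other than gut, as the 90th percentile of their means. In both groups 27 of the 51 members had means below it, as did 28.4% of all genes, and 24 members exceeded it in at least 1 group. Where the mean of 1 group lay below it, the fold is given as a bound ("at least"), the brighter mean over that of the dimmer group with each of its arrays raised to the background level where below it. The plot of levels by array shows those 24.

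**Figure D1:**
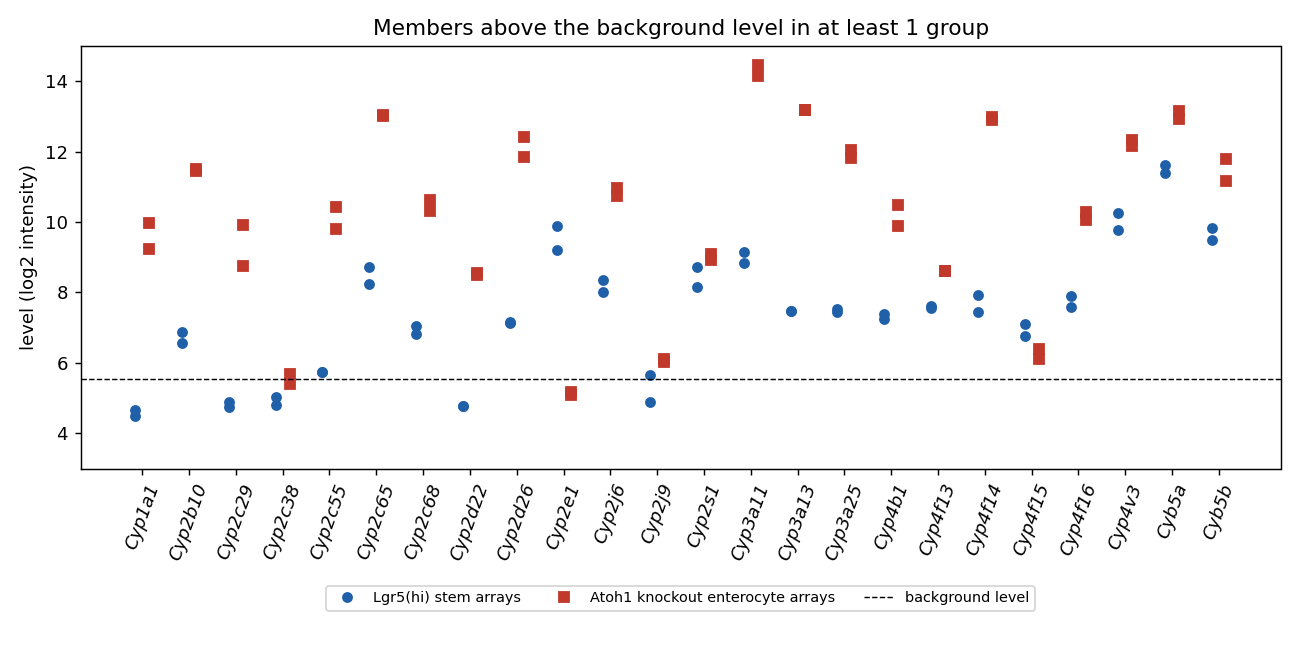
Level of each member that exceeded the background level in at least 1 group (log2 intensity, vertical axis), 1 point per array, stem arrays as circles and enterocyte arrays as squares, with the background level of 5.53 as a dashed line. Levels are comparable within a gene and not between genes. In 22 of the 24 genes both enterocyte arrays lie above both stem arrays, in Cyp2e1 and Cyp4f15 they lie below, and Cyp3a11 spans 8.82 to 14.45. The filter bears on this count, as 5 of the 24 exceeded background by the enterocyte mean alone and 1 by the stem mean alone. Over all 12393 genes, unfiltered, 30.5% lay above and 34.8% below.

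In CYP3A, 3 of 5 measured genes were higher in enterocytes and 0 lower. Cyp3a13, an enzyme of the subfamily that oxidises the broadest range of drugs, was 7.48 in both stem arrays and 13.19 and 13.18 in enterocyte arrays. That difference of 5.70 ± 0.05 (SE, n = 2 arrays per group), or 52.0-fold, was the largest among the 51 members. Cyp3a11, the PXR target usually set beside human CYP3A4, was 8.82 and 9.15 in stem and 14.45 and 14.14 in enterocyte arrays, 39.6-fold higher (5.31 ± 0.18 SE). Cyp3a25 read 7.44 and 7.53 in stem and 12.04 and 11.83 in enterocyte arrays, 21.8-fold higher (4.45 ± 0.11 SE). Their adjusted p values were 0.00225, 0.00265 and 0.00261 (limma). The remaining measured members of the subfamily were dim. Cyp3a16 lay between 3.34 and 3.56 on all 4 arrays, and Cyp3a44 read 3.97 and 4.09 against 5.16 and 4.60, below background, with an adjusted p of 0.071 (limma) that was 0.0324 after quantile normalization. CYP3A genes are close in sequence, so a probe set may also bind RNA of its neighbours.

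CYP2C split into a bright and a dim set. Of 11 measured genes 6 were higher in enterocytes, 0 were lower and 5 did not pass. Cyp2c65, known from the mouse gut as an arachidonic acid oxidase, was 8.73 and 8.25 in the stem and 13.05 and 13.02 in the enterocyte arrays, 23.3-fold higher (4.55 ± 0.20 SE, adjusted p = 0.00316 by limma). Its probe set carries the suffix that Affymetrix gives to sets shared by several transcripts, so part of its signal may come from a close relative. Cyp2c55, also an arachidonic acid oxidase, read 5.75 and 5.74 in stem arrays, just above background, and 10.43 and 9.81 in enterocyte arrays. That is 20.7-fold (4.37 ± 0.25 SE). Cyp2c29, a CAR target in liver, was below background in both stem arrays (4.88 and 4.75) and 9.92 and 8.76 in the enterocyte arrays. It was at least 14.0-fold higher (adjusted p = 0.00888 by limma), and the gap of more than 1 log2 unit between its enterocyte replicates gave the widest standard error of the members, 0.46. Cyp2c68 was 7.03 and 6.81 in stem and 10.32 and 10.63 in enterocyte arrays, 11.7-fold higher. The other calls of the subfamily were small. Cyp2c38 was 4.81 and 5.02 against 5.68 and 5.40, with an adjusted p of 0.0492 (limma) that became 0.228 with reference gene centring. Cyp2c23 passed with 4.22 and 4.40 against 5.30 and 5.40, below background in both groups, so no fold is given. Its probe set carries the same suffix as that of Cyp2c65. Cyp2c37, Cyp2c39, Cyp2c50, Cyp2c54 and Cyp2c70 did not pass and lay below background throughout.

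In CYP2D, the subfamily that in humans oxidises many antidepressants and opioids, 3 of 7 measured genes were higher and 0 lower. Cyp2d26 read 7.13 and 7.17 in stem arrays and 11.85 and 12.40 in enterocytes, a 31.5-fold difference (4.98 ± 0.22 SE, adjusted p = 0.00323 by limma). Cyp2d22 was below background in stem cells (4.77 and 4.79) and 8.55 and 8.50 in enterocytes, at least 7.98-fold higher. Its second probe set had 4.72 and 4.77 against 7.55 and 7.14. The third call, Cyp2d12, rested on 3.86 and 3.85 against 4.15 and 4.15, far below background, and its sign turned to -0.07 with reference gene centring. Cyp2d9, Cyp2d10, Cyp2d13 and Cyp2d34 were below background in both groups and did not pass.

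Among the other genes of family 2, CYP2B and CYP2J each had 1 bright call. Cyp2b10, the classic gene induced by phenobarbital through CAR, was 6.88 and 6.56 in stem arrays and 11.51 and 11.46 in enterocyte arrays, 27.1-fold higher (4.76 ± 0.14 SE, adjusted p = 0.00261 by limma). Its other 2 probe sets differed by 4.74 and 3.60 in the same direction. The set used and the one at 4.74 carry the suffix of shared sets described for Cyp2c65, so part of their signal may come from a close relative. The set at 3.60 does not carry it. Cyp2b9, Cyp2b13 and Cyp2b19 were below background in both groups. Cyp2j6, of a subfamily that epoxidises arachidonic acid, read 8.36 and 8.01 against 10.75 and 10.97, 6.41-fold higher (2.68 ± 0.17 SE). Its neighbour Cyp2j9 did not pass, at 5.66 and 4.90 against 6.12 and 6.02. Cyp2s1, a P450 of epithelia that the aryl hydrocarbon receptor can induce, read 8.72 and 8.17 in stem and 9.08 and 8.93 in enterocyte arrays. The arrays of the groups did not overlap, with a difference of 0.56 ± 0.23 (SE) that did not pass (adjusted p = 0.16 by limma).

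Cyp2e1 was the exception. This gene encodes the P450 that oxidises ethanol and small solvents and is best known from liver. It was bright in both stem arrays, at 9.89 and 9.22, and below background in both enterocyte arrays, at 5.18 and 5.10. Cyp2e1 was thus at least 16.3-fold lower in enterocytes (-4.42 ± 0.27 SE, adjusted p = 0.00431 by limma), the only member of the 51 that passed in that direction on the values as deposited. All 12 stem cell markers, all 8 goblet markers and 7 of 10 enteroendocrine markers were lower too. Of 6 Paneth cell markers 1 was lower (Lyz1, at -5.33) and 1 higher, with summed intensities of 36112.5 to 50529.5 in stem and 11784.7 to 12441.7 in enterocyte arrays. The close enterocyte sums hide a gap between those arrays in single markers. Lyz1 read 8.12 and 11.11 there, Itln1 8.14 and 11.66, and Mmp7 5.99 and 9.24. Reg3g (13.19 and 12.22) and Pnliprp2 (11.25 and 9.91) went the other way. The part of any of these cells in the difference of Cyp2e1 was not tested. Of the 10 hepatocyte markers, Alb, Fga and Fgb were among 7 below background in both groups, and Ttr and Cps1 passed as lower. Ttr, a plasma carrier protein that endocrine cells also make, was 11.35 and 11.17 in stem and 8.55 and 7.85 in enterocyte arrays. Cps1 was 13.81 and 13.72 against 13.23 and 13.14. Summed over the 10, intensities were 16116.3 to 17298.7 in stem and 9474.7 to 10255.8 in enterocyte arrays. Most of each sum came from Cps1 alone, so the sums say little about the other markers. The part of hepatocyte RNA in the difference of Cyp2e1 was not tested either.

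The CYP1 family showed a contrast between neighbouring genes. Cyp1a1, the main target of the aryl hydrocarbon receptor and an oxidase of polycyclic aromatic hydrocarbons, was below background in stem arrays (4.51 and 4.66) and 9.22 and 9.98 in enterocyte arrays. It was at least 16.8-fold higher (5.02 ± 0.31 SE, adjusted p = 0.00427 by limma). Cyp1a2, its neighbour in the genome and an enzyme typical of liver, stayed between 4.29 and 4.31 on all 4 arrays. Cyp1b1, which oxidises oestrogens outside the liver, read 4.86 and 4.93 against 4.78 and 4.86. Neither Cyp1a2 nor Cyp1b1 passed, and both were below background. The receptor itself, Ahr, was 2.02-fold higher in enterocytes (1.02 on the log2 scale, adjusted p = 0.0345 by limma). Its repressor Ahrr and its partner Arnt did not pass and were below background.

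Promoter sequence of this pair and of Cyp2e1 is shown because the pair are neighbours of which 1 passed, and Cyp2e1 is the member that passed as lower. The letters are those of RefSeq, build GRCm38.p6, 5′ to 3′ on the gene's strand from -100 to -1 relative to the start site. Capitals mark GCGTG, the core that the aryl hydrocarbon receptor binds, and TATAAA, the TATA box, each searched on both strands.
Cyp1a1, chr9:57697513-57697612, plus strand: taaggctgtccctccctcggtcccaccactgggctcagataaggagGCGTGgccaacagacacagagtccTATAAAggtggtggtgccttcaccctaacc
Cyp1a2, chr9:57683656-57683755, minus strand: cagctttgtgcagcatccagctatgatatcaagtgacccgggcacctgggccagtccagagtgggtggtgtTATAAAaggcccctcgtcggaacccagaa
Cyp2e1, chr7:140763719-140763818, plus strand: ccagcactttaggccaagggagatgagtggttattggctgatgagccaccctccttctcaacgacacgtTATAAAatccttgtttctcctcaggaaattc
All 3 stretches hold TATAAA near the start site, and only that of Cyp1a1 holds GCGTG, at -54. The promoter of Cyp1b1, not shown, also holds GCGTG, at -76 on the other strand, and Cyp1b1 did not pass and was below background. Over the whole promoter windows of 300 bases (250 before and 50 after the start), GCGTG occurred in 32.4% of all 32851 RefSeq promoters and in 9 of the 40 members with a promoter. It was found in 6 of the 18 members called higher and in 2 of the 18 uncalled members below background. TATAAA occurred in 13.6% of all promoters and in 17 of the 40 members, 7 of 18 among those called higher and 9 of 18 among the uncalled members below background. The RefSeq shares, here and below, count promoters, while members are counted as genes with a match in any of their promoters.

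In family 4, 5 of 10 measured genes were higher in enterocytes and 0 lower. Cyp4f14, which hydroxylates leukotriene B4, was 7.92 and 7.44 in the stem and 12.90 and 12.99 in the enterocyte arrays, or 38.5-fold higher (5.27 ± 0.20 SE, adjusted p = 0.00277 by limma). Cyp4f16 was 7.91 and 7.58 in stem and 10.30 and 10.05 in enterocyte arrays, 5.40-fold higher (2.43 ± 0.17 SE). Cyp4f13 read 7.62 and 7.56 against 8.61 and 8.60, a 2.03-fold difference with little spread (1.02 ± 0.05 SE). The CYP4F genes that passed thus ranged from 2.03-fold to 38.5-fold. A probe set used in no test binds both Cyp4f16 and Cyp4f37, so signal may be shared among these paralogs. Cyp4f15 read 7.09 and 6.78 in stem and 6.39 and 6.10 in enterocyte arrays, a difference of -0.69 ± 0.18 (SE) that missed the threshold (adjusted p = 0.0607 by limma). It passed with genes below background left out, at 0.0323, and with reference gene centring, at 0.000499. Cyp4f18, the leukotriene hydroxylase of neutrophils, was below background, at 4.54 to 4.74.

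Cyp4b1, a hydroxylase of medium-chain fatty acids and of furan toxins, was 7.38 and 7.25 against 9.88 and 10.50, 7.31-fold higher (2.87 ± 0.25 SE). Cyp4v3, counterpart of the human fatty acid hydroxylase CYP4V2 of the retina, was 10.25 and 9.79 against 12.15 and 12.33, 4.66-fold higher (2.22 ± 0.20 SE), with 3.34 on its second probe set. The set used for Cyp4v3 carries the suffix of shared sets described for Cyp2c65, and the second set does not. The CYP4A genes, fatty acid hydroxylases that PPARα controls in liver, did not pass. Cyp4a12a, Cyp4a14 and Cyp4a31 were below background in both groups with differences from -0.10 to 0.06. A probe set annotated to both Cyp4a31 and Cyp4a10, used in no test, read 6.23 and 5.95 against 6.23 and 6.66, above background. Ppara was 2.33-fold higher in enterocytes (adjusted p = 0.00337 by limma), and its part in the levels of these genes was not tested.

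Both measured electron donors were higher in enterocytes. Cyb5a, which supplies electrons to P450s in the endoplasmic reticulum, was 11.61 and 11.40 in stem and 13.16 and 12.93 in enterocyte arrays, 2.92-fold higher (1.55 ± 0.13 SE, adjusted p = 0.00659 by limma). Cyb5b, the form of the outer mitochondrial membrane, was 9.83 and 9.50 against 11.16 and 11.78, or 3.49-fold (1.80 ± 0.28 SE, adjusted p = 0.0203 by limma, and 0.0625 with values raised to the background level). Its other probe sets differed by 2.09 and 2.52.

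**Figure D2:**
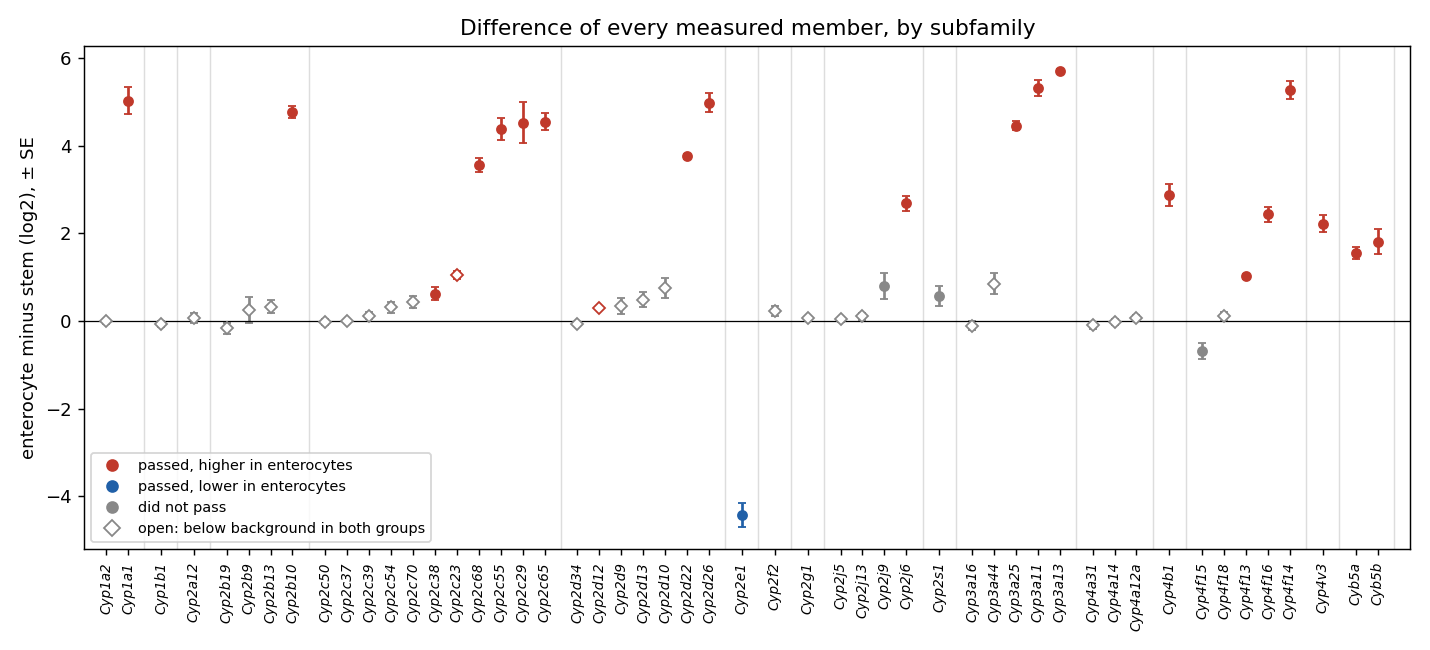
Difference of all 51 members by subfamily (enterocyte minus stem, log2, with limma's standard error, n = 2 arrays per group), red for genes that passed as higher, blue for lower, grey for genes that did not pass, and open diamonds for genes below background in both groups. Most points of CYP2A, CYP4A and part of CYP2B, CYP2C and CYP2D sit near 0, Cyp3a13 reaches 5.70 and Cyp2e1 is at -4.42.

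Members below background gave little information on change. Of the 27, 2 passed (Cyp2c23 and Cyp2d12) and 25 did not, and their differences ran from -0.17 to 1.04 with a median of 0.10. Besides those named above, the uncalled ones were Cyp2a12, Cyp2f2, Cyp2g1, Cyp2j5 and Cyp2j13. At this brightness a low level and an absent transcript give the same signal, so no change was detectable rather than shown to be absent.

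The order of the genes in the genome sets dim and bright members side by side. By RefSeq's order of protein-coding genes, 7 P450 clusters held at least 4 measured members, with at most 10 other genes between neighbours. In the CYP2C cluster of 14 genes, the members at the Cyp2c55 end up to Cyp2c68 included all 5 calls. Cyp2c39, which lies between Cyp2c29 and Cyp2c38 at that end, was below background in both groups. So were Cyp2c37, Cyp2c54, Cyp2c50 and Cyp2c70 at the other end. In the CYP3A cluster Cyp3a11 and Cyp3a25, next to each other, were higher, and Cyp3a16 and Cyp3a44 were below background. Cyp3a13 lies apart from that cluster and had the largest difference. In the CYP2D cluster of 8 genes the calls above background were the genes at both ends, Cyp2d22 and Cyp2d26, and all 4 measured genes between them were below background. Among the 8 measured genes of the cluster from Cyp2s1 to Cyp2t4, which holds CYP2A, CYP2B, CYP2F and CYP2G genes, Cyp2b10 alone passed and 6 were below background. Cyp4b1 ends a cluster whose 3 measured CYP4A genes were below background. Of the CYP4F cluster all 4 measured genes exceeded background, and Cyp4f15 stands between Cyp4f16 and Cyp4f14. In the CYP2J cluster Cyp2j6 alone passed, next to Cyp2j9.

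**Figure D3:**
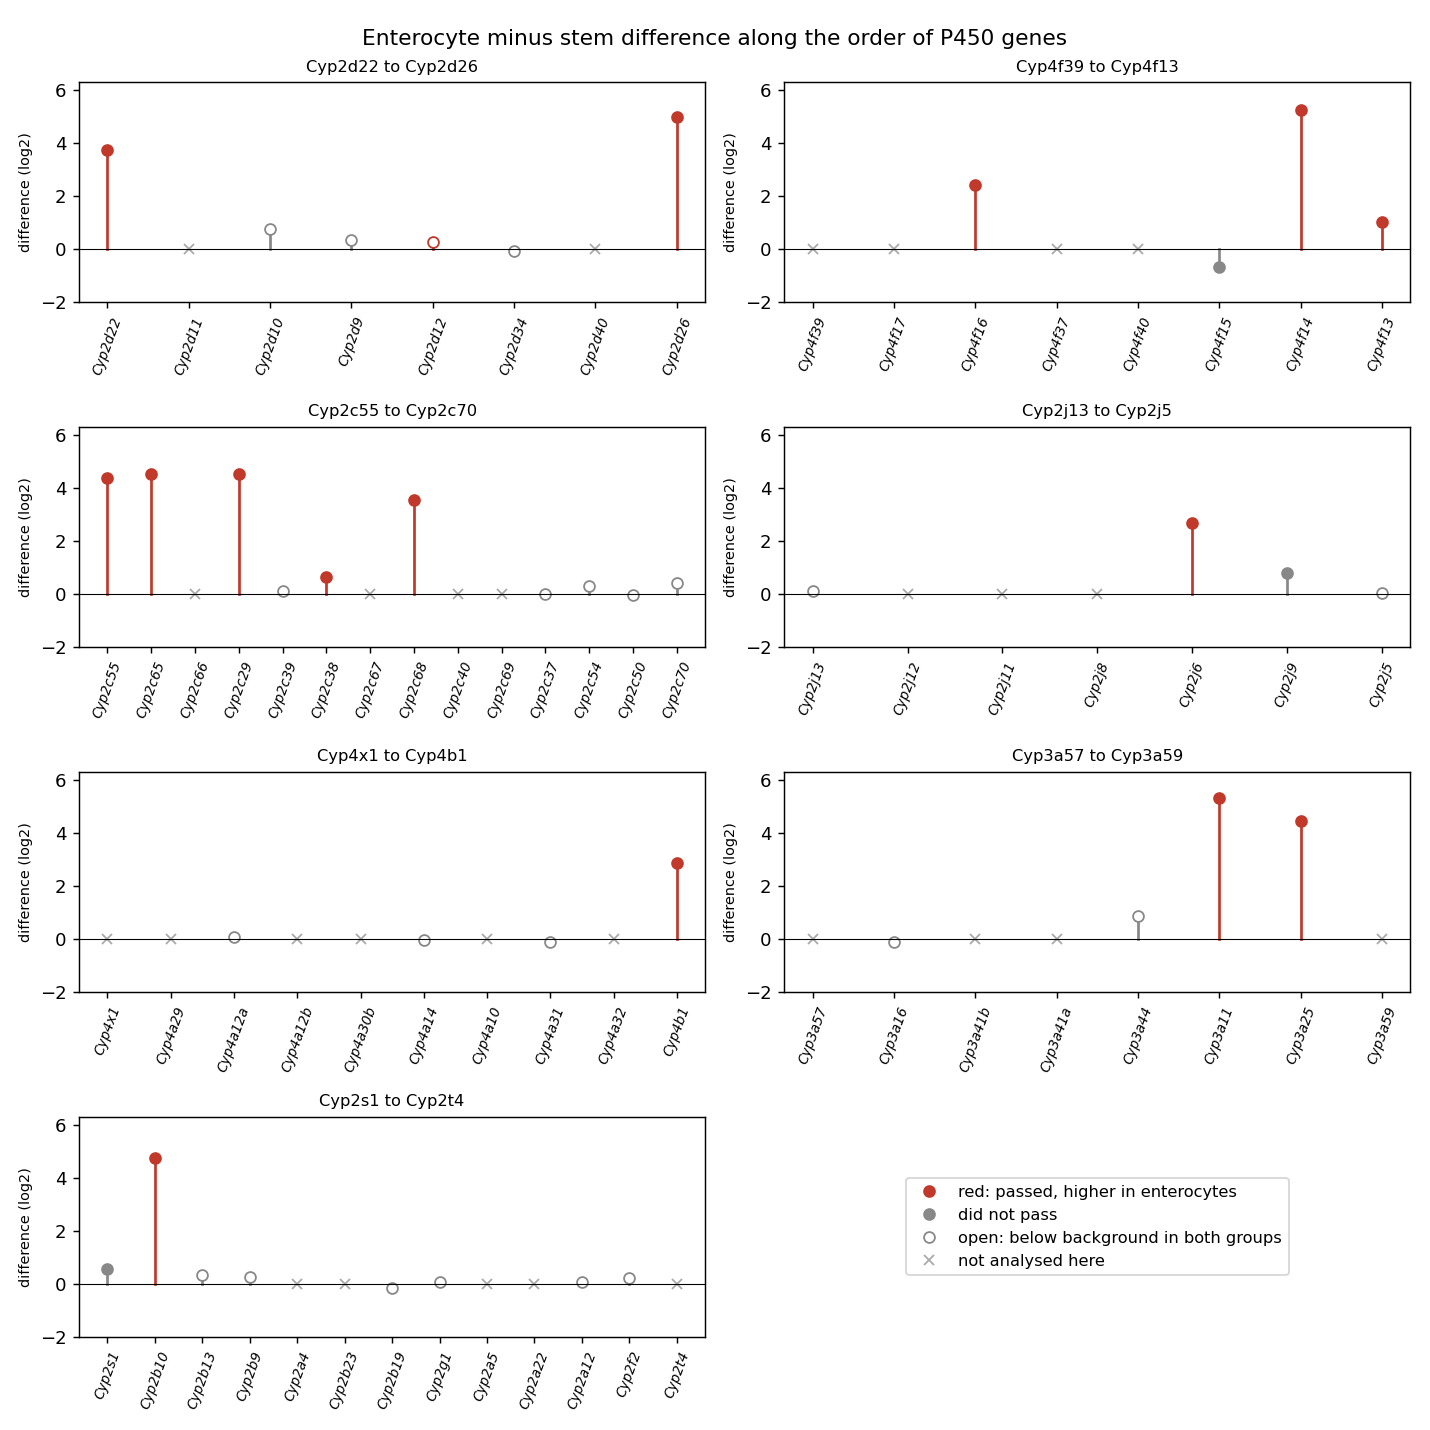
Difference of each measured member (enterocyte minus stem, log2, vertical axis) in the 7 P450 gene clusters with at least 4 measured members, in the order of RefSeq GRCm38.p6 with equal spacing. Crosses mark genes not analysed here and open circles genes below background in both groups, and the adjacent Cyp3a11 and Cyp3a25 are both high, at 5.31 and 4.45, while Cyp4a31, the measured gene nearest to Cyp4b1 (2.87), is at -0.10.

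A further promoter motif is shown because members called higher and members below background both carry it. CAAAGTCCA is the sequence bound by HNF4, a nuclear receptor family of liver and gut. On either strand it was found in 156 of 32851 RefSeq promoters (0.475%) and in 5 of the 40 members with a promoter. Of these, Cyp2c65, Cyp2c68 and Cyp3a11 were higher in enterocytes, at 4.55, 3.55 and 5.31 on the log2 scale, and Cyp2c70 and Cyp3a16 were below background in both groups. The stretches from -130 to -51 relative to the start site, 5′ to 3′ on the gene's strand with the motif in capitals, read as follows (RefSeq, GRCm38.p6).
Cyp2c65, chr19:39060876-39060955, plus strand: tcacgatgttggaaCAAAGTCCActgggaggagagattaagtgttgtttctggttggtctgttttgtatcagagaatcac
Cyp2c68, chr19:39741152-39741231, minus strand: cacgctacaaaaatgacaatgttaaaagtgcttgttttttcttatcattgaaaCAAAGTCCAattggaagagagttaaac
Cyp3a11, chr5:145879905-145879984, minus strand: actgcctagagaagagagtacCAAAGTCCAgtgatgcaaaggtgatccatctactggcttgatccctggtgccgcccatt
Cyp2c70, chr19:40187337-40187416, minus strand: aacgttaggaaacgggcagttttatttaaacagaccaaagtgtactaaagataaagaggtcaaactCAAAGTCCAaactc
Cyp3a16, chr5:145469774-145469853, minus strand: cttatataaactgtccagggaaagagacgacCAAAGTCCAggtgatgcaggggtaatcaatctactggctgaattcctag
The motif starts at -116, -77, -109, -64 and -99 in the order shown, and its letters overlap no match of the other motifs. AGGTCA, the hexamer that many nuclear receptors bind, was found in 16.3% of all promoters and in 11 of 40 members, 3 of 18 among those called higher and 8 of 18 among the uncalled members below background. GTTAAT, the core of HNF1 sites, occurred in 7.1% of all promoters and in 3 of 40 members, Cyp2c68, Cyp2d26 and Cyp4f14. These were 3 of the 18 called higher, with 0 of the 18 uncalled members below background. A match describes letters in a window and does not show binding. Of the HNF4 genes, Hnf4g was 10.3-fold higher in enterocytes (3.36 ± 0.40 SE, adjusted p = 0.0116 by limma), and Hnf4a, at 1.16-fold, did not pass (adjusted p = 0.175).

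Receptors and regulators of P450 expression went both ways. Of 29 measured, 13 were higher, 6 lower and 10 did not pass, with a median difference of 0.25. Nr1i3, which encodes CAR, was 6.02 and 6.00 in stem and 8.46 and 8.65 in enterocyte arrays, 5.84-fold higher (2.54 ± 0.09 SE, adjusted p = 0.00271 by limma). Nr1i2, which encodes PXR, was 1.97-fold higher (adjusted p = 0.0135 by limma). Ppargc1a, a coactivator, was 6.12-fold higher. Foxa3, a forkhead factor of liver and gut, was 7.91-fold lower (-2.98 ± 0.15 SE). The median of this list turned to -0.11 with reference gene centring, with 12 higher and 9 lower.

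Enzymes that act beside P450 were mostly higher. Of 32 conjugating enzymes 20 were higher, 0 lower and 12 did not pass, at a median of 1.04, and with reference gene centring 19 were higher and 6 lower. The sulfotransferase genes Sult1b1 and Sult2b1 were 18.5-fold (4.21 ± 0.14 SE) and 16.6-fold (4.05 ± 0.07 SE) higher, and the glucuronosyltransferase gene Ugt2b5 at least 6.71-fold. Among 35 other oxidoreductases and hydrolases 24 were higher, 5 lower and 6 did not pass, at a median of 1.14 that was 0.77 with reference gene centring, then with 19 higher and 7 lower. The flavin monooxygenase gene Fmo5 was 25.1-fold higher (4.65 ± 0.10 SE), the alcohol dehydrogenase gene Adh4 at least 10.7-fold and the retinal dehydrogenase gene Aldh1a1 11.2-fold. The carboxylesterase gene Ces1d was 6.33-fold lower (-2.66 ± 0.20 SE).

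Genes of haem supply were mixed. Of 19 measured 7 were higher, 3 lower and 9 did not pass, at a median of 0.05 that was -0.31 with reference gene centring, then with 4 higher and 6 lower. Alas1, the first and rate-limiting enzyme of haem synthesis in most tissues, was 2.33-fold higher (1.22 ± 0.14 SE, adjusted p = 0.0106 by limma), and Pgrmc1, a haem-binding partner of P450s, 2.37-fold. The folate and haem transporter gene Slc46a1 was at least 39.4-fold higher, and Ppox, a late enzyme of the pathway, was 1.95-fold lower.

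Genes that supply or clear the substrates of P450 were mixed. In eicosanoid and fatty acid supply 8 of 21 were higher, 2 lower and 11 did not pass, at a median of 0.15 that was -0.21 with reference gene centring. Hpgd, which inactivates prostaglandins, was 9.58-fold higher (3.26 ± 0.13 SE), and Ephx2, which hydrolyses the epoxides that P450s make from fatty acids, 7.52-fold. Alox5ap, needed for leukotriene synthesis and also on the tuft cell list, was 8.93-fold higher, and the phospholipase gene Pla2g5 was 7.15-fold lower. In retinoid handling 10 of 28 were higher, 4 lower and 14 did not pass, at a median of 0.20 that was -0.17 with reference gene centring. Rbp2, the retinol-binding protein of enterocytes, led at 5.74 ± 0.07 (SE), followed by Aldh1a1 above and Bco2, a carotenoid-cleaving enzyme, at 5.44-fold, and Rbp7, a retinol-binding protein, was 2.79-fold lower. Of 24 drug and bile acid transporters 11 were higher, 3 lower and 10 did not pass, at a median of 0.54 that was 0.17 with reference gene centring, then with 10 higher and 6 lower. Slc51a, a subunit of the basolateral bile acid exporter, was 38.3-fold higher (5.26 ± 0.23 SE), Slc47a1 and Slc22a4, carriers of organic cations, were at least 13.0-fold and at least 6.07-fold higher, and the efflux pump gene Abcc1 was 4.13-fold lower.

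P450 genes of families above 4, which make and break down steroids, bile acids and vitamin D, were mostly dim. Of 13 measured, 1 was higher, 1 lower and 11 did not pass, and 10 were below background in both groups. Their median of 0.03 was -0.33 with reference gene centring, then with 1 higher and 4 lower. Cyp27a1, the mitochondrial sterol hydroxylase, was 2.46-fold higher (1.30 ± 0.16 SE, adjusted p = 0.0119 by limma), and Cyp39a1, an oxysterol hydroxylase, 4.23-fold lower (-2.08 ± 0.13 SE, adjusted p = 0.0044). The difference between these families and families 1 to 4 was not tested.

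**Figure D4:**
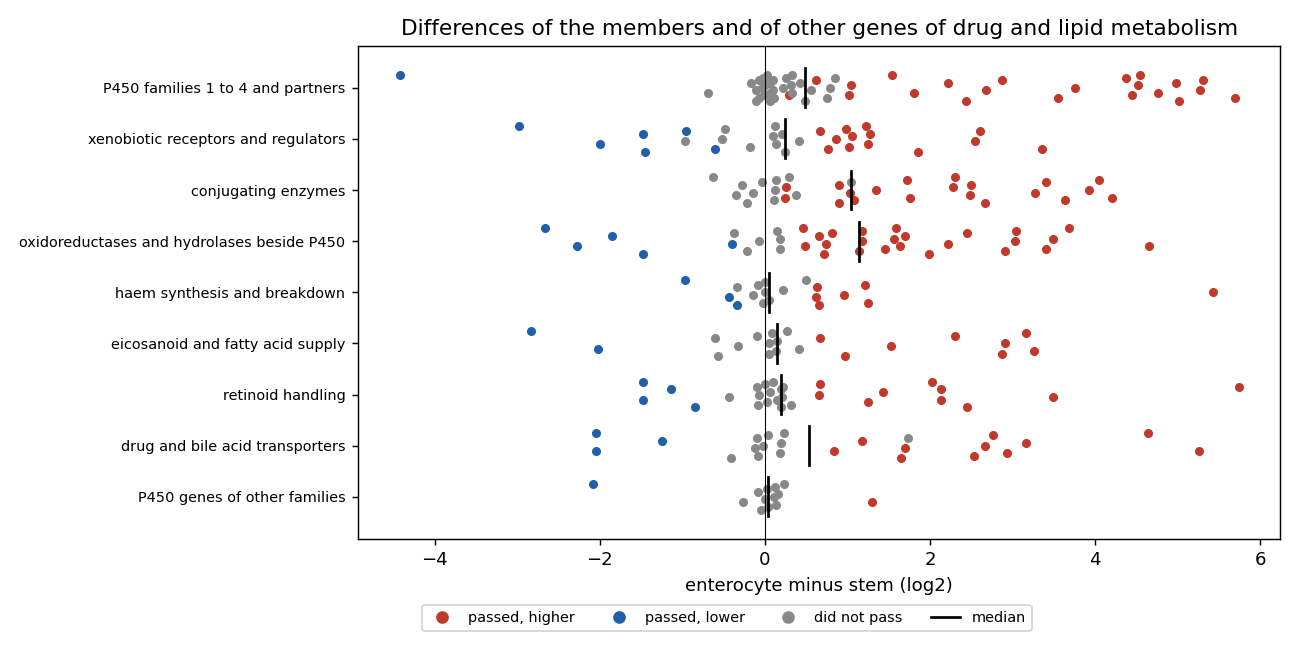
Difference of each gene (enterocyte minus stem, log2, horizontal axis) for the 51 members and for the other gene lists, 1 point per gene with small vertical offsets for legibility, red for passed as higher, blue for lower, grey for not passed, and a black bar at each median. The members have a median of 0.49 with a long right tail, conjugating enzymes 1.04, other oxidoreductases and hydrolases 1.14, and P450 genes of other families 0.03.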

How the data were processed

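The authors deposited normalized intensities per probe set, linear and between 7.93 and 41703.8, with medians per array from 102.4 to 110.6. The submitters' processing notes name RMA without a version, and the scaling between arrays is not stated in the sources used here. Of 22690 probe sets, 20380 had 1 gene symbol in the platform annotation. Another 691 had several and were left out, as were 1606 not listed and 64 controls, and these last 2 counts overlap. Intensities were log2-transformed without a pseudocount, and the probe set with the highest mean stood for each of 12393 genes. Group differences were fitted in R 4.3.3 by limma 3.58.1 (lmFit, eBayes, two-sided, Benjamini-Hochberg over all genes), with 2 residual and 1.23 prior degrees of freedom, and the code was tested on simulated data. Replicates were identical in both groups for 209 genes. With 2 arrays per group, array number sets the precision. A bounded fold sets the brighter mean against the dimmer arrays, each raised to background where below it.

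Members, lists and tests were chosen with earlier results of these data known. Array values are given for up to 3 called members per subfamily with the largest differences, for Cyb5a, Cyb5b, Cyp1a1, Cyp1b1 and Cyp2s1, and for other members chosen after their values were seen. In each other list, up to 3 genes past the threshold in its main direction and 1 in the opposite direction are named. Ahr, Ahrr, Arnt, Ppara, Nr1i2 and Hnf4a were added after their values were seen. Alternatives were the replicate block, each array left out, the choice of probe set, suffixes of shared probe sets, quantile normalization, centring on 8 reference genes, handling of values below background, and an intensity trend.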

Additional observations from a re-analysis of the deposited data

Results flagged for a closer look

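Probe sets annotated to several genes entered no comparison, and 1 of the 4 that name P450 genes of families 1 to 4 carried a signal above background in both enterocyte arrays and above both stem arrays. It is annotated to Cyp4f37 and Cyp4f16 and read 7.28 and 7.09 in the stem and 10.04 and 10.03 in the enterocyte arrays, a difference of 2.85 on the log2 scale. The probe set used for Cyp4f16 differed by 2.43, and Cyp4f37 has no value of its own here. The set for Cyp3a41a and Cyp3a41b read 3.65 and 3.36 against 5.10 and 5.31, below background.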

How the results depend on the processing

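Of the 23 calls among members, 19 kept their direction and stayed past the threshold in each of the 9 settings other than leaving out an array in which the gene was tested (limma). The exceptions were Cyb5b, Cyp2c23, Cyp2c38 and Cyp2d12. With values raised to the background level all 4 lost their calls, and Cyp2d12 also turned to -0.0739 with reference gene centring. Members called lower were 1 on the deposited values, 2 with the replicate block (with 20 higher) and with genes above background only, and 7 with reference gene centring. Among the 8 genes used for that centring, 3 passed as higher and 1 as lower. Cyp4f15 was the second gene called lower with the block, while Cyp2c38 and Cyp2d12 were not called. The members' median of 0.49 became 0.42 with the mean over probe sets, with the lowest-mean probe set and without suffixed probe sets. It was 0.43 with quantile normalization, 0.12 with reference gene centring, 3.55 over the 23 members tested with genes above background only, and 0 with values raised to background. The filter behind the 3.55 took the mean over all 4 arrays, so a member dim in stem arrays could pass through its enterocyte level. That bears on the median, which was -0.06 over all genes passing the filter. Leaving out 1 array at a time gave 0 to 12 members higher, 0 lower, medians of 0.44 to 0.58, and 0 to 1721 calls over all genes in place of 5036. A group of 1 array is then assumed to vary like the other group. Cyp1a2 ranged from -0.0207 to 0.0029 as arrays were left out, and Cyp1b1 turned to 0.0079 with the mean over probe sets and 0.1262 with the lowest-mean one. Of 25 uncalled members below background, 17 changed sign in at least 1 setting, and signal over background limits what can be read from them. The samples share only a replicate number. Deviations of same-numbered arrays correlated at r = 0.05 across genes, which are not independent replicates, and the block gave 4567 calls over all genes.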

Other observations

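The CYP4A genes measured by probe sets of their own were dim, but a probe set annotated to both Cyp4a31 and Cyp4a10, which entered no test, was above background on all 4 arrays. It read 6.23 and 5.95 in the stem and 6.23 and 6.66 in the enterocyte arrays, and the groups overlapped. The set annotated to Cyp2a4 and Cyp2a5 read 4.89 and 5.10 against 4.81 and 4.89, below background.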
